A study of Mus musculus with 21 samples.

Results

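Mt1 and Mt2, the metallothionein genes measured in these mouse liver cells, and Slc39a14, a zinc importer gene, are described across 21 libraries of primary mouse hepatocytes, liver cells that were taken from wild-type (WT) mice and kept in culture. The 3 genes were selected by symbol, mapped to their Ensembl identifiers, and all 3 were among the 9657 genes in the deposited tables. They had been chosen with their values in these libraries known, so their levels and differences are given as descriptions and carry no test. The cells received PBS, a salt solution without any agent, or 1 of 3 RNAi agents directed against Ttr, which the labels call TTR-1236, TTR-1186 and Reference 4. Doses were 0.2 µM and 2 µM of each agent, and RNA was taken on Day 1 from every group. This makes 7 groups of 3 libraries, prepared with QuantSeq, a method that sequences the 3′ end of mRNA. Nothing in the labels ties the libraries of a group to different mice or dishes, so a p-value here reflects the spread of these libraries alone, and that spread may be technical.

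Metallothioneins are short proteins rich in cysteine, and the cysteines bind zinc, copper and cadmium. In the liver Mt1 and Mt2 hold zinc inside the cell, and their transcription is raised by metals, by glucocorticoids and by inflammatory signals such as interleukin-6. The metal response runs through Mtf1, a transcription factor that senses free zinc and binds short promoter sequences called metal response elements. Slc39a14, also called ZIP14, is a transporter of the cell surface that carries zinc, iron and manganese into hepatocytes and is known to be raised in the liver by interleukin-6.

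Levels are CPM, the reads of a gene when those of a library are scaled to a total of 1000000 over the genes in its table. Libraries held 14158740 to 37410773 reads. Ttr, the targeted gene, had 2168 to 2336 CPM in the 3 PBS libraries and 3.19 to 27.1 CPM in the 18 treated libraries. Of 8 hepatocyte markers 7 were measured, and their summed level was 12319 to 20328 CPM in single libraries. Of the markers of other liver cells, 2 of 8 for macrophages (Cd68 and Csf1r), 1 of 7 for endothelial cells (Stab2), 2 of 8 for stellate cells and fibroblasts (Acta2 and Dcn) and 2 of 6 for cholangiocytes (Krt19 and Sox9) were among the genes measured. In bulk libraries such as these, fewer cells of a type and less RNA per cell cannot be told apart. Log2 differences are on the scale of log2(CPM + 1), with the standard error (SE) and 95% interval of a limma fit over all 21 libraries.

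Mt1 (ENSMUSG00000031765) and Mt2 (ENSMUSG00000031762) are neighbours on the plus strand of chromosome 8 in mm10, the build of the deposited data. Mt2 spans 94172664 to 94173568 and Mt1 spans 94179082 to 94180327, with 5513 bases between them. The annotated coding transcript of each has 3 exons, 549 bases long in Mt1 and 511 bases in Mt2. Their coding sequences, read from the GRCm38 transcripts, are shown because the proteins they encode are defined by their cysteines. The capitals mark the cysteine codons.
Mt1: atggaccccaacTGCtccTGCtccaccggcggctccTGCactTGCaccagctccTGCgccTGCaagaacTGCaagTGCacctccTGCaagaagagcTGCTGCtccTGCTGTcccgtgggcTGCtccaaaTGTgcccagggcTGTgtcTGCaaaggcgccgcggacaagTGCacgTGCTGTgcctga
Mt2: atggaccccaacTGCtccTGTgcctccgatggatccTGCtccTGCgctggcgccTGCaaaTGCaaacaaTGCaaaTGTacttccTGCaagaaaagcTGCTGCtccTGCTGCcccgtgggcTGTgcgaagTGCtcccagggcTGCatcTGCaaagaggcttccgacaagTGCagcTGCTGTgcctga
Both sequences are 186 bases long, stop codon included, and each holds 20 cysteine codons, which are 32.8% of the 61 codons that encode an amino acid. All 20 cysteine codons lie at the same positions in both genes. The sequences match at 148 of 186 bases (79.6%), and 34 of 62 codons are identical. A 3′ method reads the end of the transcript, where the genes can be told apart. Of the 20-base words of the Mt1 transcript 1 of 530 is also in Mt2, and of those in its last 75 bases 0 of 56.

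Windows around the start sites of Mt1 and Mt2 hold several copies of the core of the metal response element. Promoter windows were taken from RefSeq on GRCm38.p6, from 250 bases before to 50 bases after each start site, and searched on both strands for TGCACNC and TGCGCNC. At least 1 match was found in 25.7% of 32851 windows of this length. The Mt1 window held 3 matches, a number that 1.97% of windows reach, and the Mt2 window held 4, a number that 0.518% reach. Counted from the RefSeq start site, the Mt1 matches lay at -23, 2 and 20, and the Mt2 matches at -223, -128, -50 and 4. Sequence outside the windows was not searched. The matches are shown with 6 bases on either side, with the core in capitals.
Mt1, chr8:94179066-94179072, plus strand: ccgctgTGCACACtggcgc
Mt1, chr8:94179091-94179097, plus strand: gagctcTGCACTCcgcccg
Mt1, chr8:94179109-94179115, plus strand: gaaaagTGCGCTCggctct
Mt2, chr8:94172395-94172401, plus strand: cgcctcTGCACCCggcccc
Mt2, chr8:94172490-94172496, plus strand: acccttTGCGCTCagctcc
Mt2, chr8:94172568-94172574, minus strand: agagccTGCACACgccctc
Mt2, chr8:94172622-94172628, minus strand: tgggccTGCGCACgacccg
The letters of the antioxidant response element, TGACNNNGC, were in 12.4% of windows, 0 times in the Mt1 window and 1 time in the Mt2 window. TTCNNNGAA, the letters bound by STAT3, the factor activated by interleukin-6, was in 8.30% of windows and 0 times in either. A match is a run of letters and was not measured as a binding site, and a window without a match says nothing about the factor.

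Mt1 was higher at 2 µM of TTR-1236 and of Reference 4 than in any other group, and was not higher at 2 µM of TTR-1186. In PBS its levels were 4416, 4391 and 5039 CPM, a mean of 4615 ± 367 (SD, n = 3). With Reference 4 at 2 µM they were 10023, 7625 and 6837 CPM, a mean of 8162 ± 1660 (SD, n = 3). With TTR-1236 at 2 µM they were 6130, 8148 and 7903 CPM, a mean of 7393 ± 1101 (SD, n = 3). All 6 of these libraries lay above every PBS library and above every other treated library, the highest of which held 5153 CPM. With TTR-1186 at 2 µM the levels were 4244, 4085 and 4012 CPM, a mean of 4114 ± 119 (SD, n = 3). These lay just under the lowest PBS library. At 0.2 µM, Mt1 was 4127, 5153 and 4675 CPM with TTR-1236, 4092, 4673 and 3100 CPM with TTR-1186, and 3769, 4641 and 4091 CPM with Reference 4. The 0.2 µM groups overlapped PBS under each agent. Ordered by mean, Reference 4 and TTR-1236 at 2 µM came first and overlapped each other, a gap without overlap followed, and the remaining neighbours (TTR-1236 at 0.2 µM, PBS, Reference 4 at 0.2 µM, TTR-1186 at 2 µM and TTR-1186 at 0.2 µM) overlapped one by one.

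**Figure D1:**
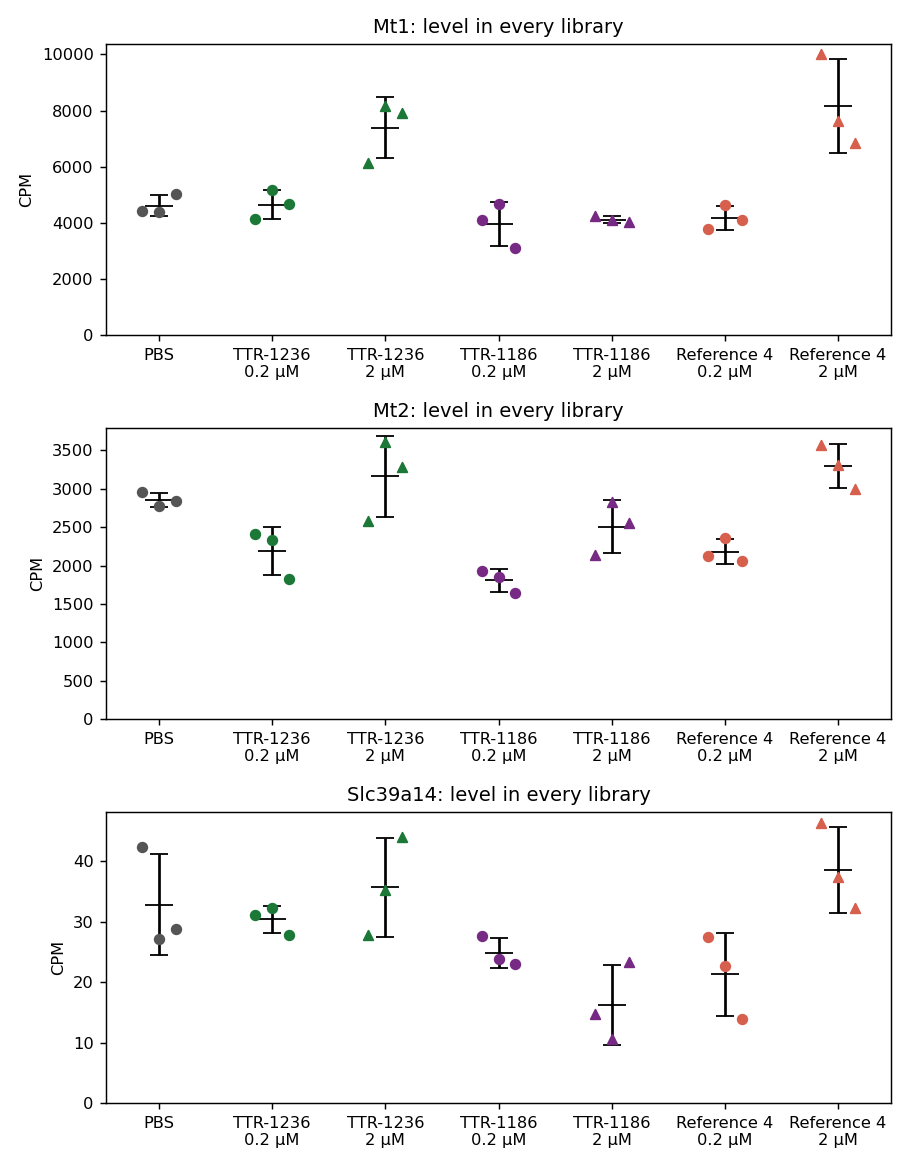
CPM (vertical axis, from 0) of Mt1, Mt2 and Slc39a14 in each of the 21 libraries, by group on the horizontal axis; circles are PBS and 0.2 µM, triangles are 2 µM, and black bars are the mean ± SD of 3 libraries. The 6 libraries of TTR-1236 and Reference 4 at 2 µM have 6130 to 10023 CPM of Mt1, and every other library has at most 5153 CPM.

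Against PBS, the log2 difference of Mt1 was 0.81 with Reference 4 at 2 µM (SE 0.15, 95% interval 0.49 to 1.12), a ratio of means of 1.77. With TTR-1236 at 2 µM it was 0.67 (0.36 to 0.98), a ratio of 1.60. With TTR-1186 at 2 µM it was -0.16 (-0.48 to 0.15), and at 0.2 µM it was 0.01 with TTR-1236, -0.24 with TTR-1186 and -0.15 with Reference 4, each with an interval that includes 0.

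The share of mitochondrial rRNA in a library moved with Mt1. It was 0.278% to 0.487% with TTR-1236 at 2 µM and 0.383% to 1.10% with Reference 4 at 2 µM, against 3.26%, 2.70% and 0.797% in the PBS libraries 1, 2 and 3. With TTR-1186 at 2 µM it was 1.95%, 0.622% and 2.21%, and in the 0.2 µM libraries it lay between 1.47% and 3.73%. Over the 21 libraries Pearson's r between log2(CPM + 1) of Mt1 and the log2 share was -0.73 (Spearman's rho -0.73), and after subtracting group means it was -0.15. The points share groups and libraries, so these are descriptions. PBS library 3, with the share of 0.797%, had 5039 CPM of Mt1, and TTR-1186 library 2 at 2 µM, with 0.622%, had 4085 CPM. With both of these libraries left out, the log2 difference of Mt1 from PBS was 0.87 for Reference 4 and 0.74 for TTR-1236 at 2 µM. The part of the mitochondrial share in the Mt1 levels was not tested.

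**Figure D2:**
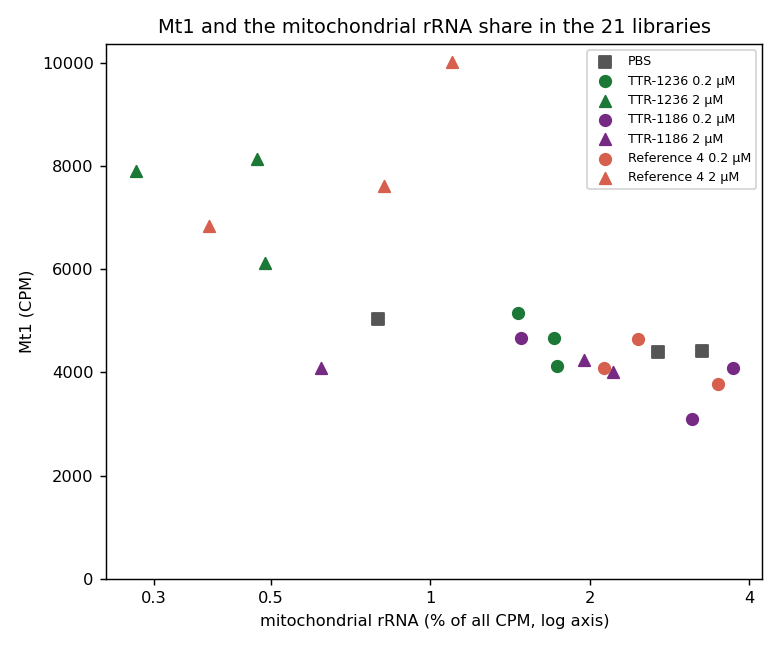
Mt1 in CPM (vertical axis) against mitochondrial rRNA as a percent of all CPM (horizontal axis, log scale), 1 point for each of the 21 libraries, coloured by agent. The TTR-1186 library at 2 µM with a share of 0.622% has 4085 CPM of Mt1, while the Reference 4 library at 2 µM with 1.10% has 10023 CPM.

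Mt2 was lower than PBS in every library at 0.2 µM and at 2 µM overlapped PBS or lay above it. In PBS it was 2953, 2774 and 2840 CPM, a mean of 2856 ± 90.9 (SD, n = 3). At 0.2 µM it was 2407, 2332 and 1830 CPM with TTR-1236, 1930, 1852 and 1640 CPM with TTR-1186, and 2124, 2361 and 2053 CPM with Reference 4. The highest of these 9 libraries, at 2407 CPM, lay under the lowest PBS library, at 2774 CPM. At 2 µM it was 2581, 3613 and 3283 CPM with TTR-1236, a mean of 3159 ± 527 (SD, n = 3). With TTR-1186 at 2 µM it was 2141, 2820 and 2560 CPM, a mean of 2507 ± 343 (SD, n = 3). With Reference 4 at 2 µM it was 3568, 3308 and 2999 CPM, a mean of 3292 ± 285 (SD, n = 3). Only the Reference 4 group lay wholly above PBS, and the TTR-1236 and TTR-1186 groups overlapped it. In the order of the means every neighbour overlapped the next except the lowest, TTR-1186 at 0.2 µM with 1807 ± 150 CPM (SD, n = 3), which lay wholly under Reference 4 at 0.2 µM.

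Against PBS at 0.2 µM, the log2 difference of Mt2 was -0.39 with TTR-1236 (SE 0.14, 95% interval -0.67 to -0.11), -0.66 with TTR-1186 (-0.94 to -0.38) and -0.39 with Reference 4 (-0.67 to -0.11). These 3 comparisons share the PBS libraries. At 2 µM it was 0.13, -0.20 and 0.20 for the same agents in that order, each with an interval that includes 0. Pearson's r between Mt2 and the log2 mitochondrial rRNA share was -0.64 over the 21 libraries and -0.10 after subtracting group means.

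Mt2 shares sequence with an antisense gene on the other strand, Gm45774 (ENSMUSG00000110588), which spans 94170748 to 94173412 on chromosome 8. Of the 588 exon bases of Mt2, 432 lie inside it, among them 144 of the last 300 bases of the Mt2 transcript. The strand setting of the counting is not given in the sources used here, so reads of the 2 genes may not have been told apart in the overlap. Gm45774 held 52.4 to 624 CPM in single libraries. At 2 µM against 0.2 µM over the 3 agents it rose by 1.43 on the log2 scale (SE 0.27, limma adjusted p = 0.00274), with means of 385 and 150.1 CPM. With Reference 4 alone the rise was 2.37 (SE 0.47, limma adjusted p = 0.00589). The log2 difference was 0.73 with TTR-1236 alone (limma adjusted p = 0.593) and 1.19 with TTR-1186 alone (limma adjusted p = 0.265). The part of Gm45774 in the Mt2 levels was not tested.

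Mt1 and Mt2 went up and down together across libraries, and Mt1 varied over the wider range. Over the 21 libraries Pearson's r of their log2 values was 0.78 (Spearman's rho 0.66), and after subtracting group means it was 0.51. The points share libraries and groups. The ratio of Mt1 CPM to Mt2 CPM in a library was 1.62 ± 0.14 in PBS (SD, n = 3), 2.46 ± 0.30 with Reference 4 at 2 µM and 2.35 ± 0.08 with TTR-1236 at 2 µM. With TTR-1186 it was 2.18 ± 0.32 at 0.2 µM and 1.67 ± 0.28 at 2 µM. With TTR-1236 and Reference 4 at 0.2 µM it was 2.16 ± 0.42 and 1.91 ± 0.12. The ratio compares libraries, and as the 2 genes may be captured differently it is not a ratio of transcript numbers. Together they took 0.474% of all reads in the lowest library, of TTR-1186 at 0.2 µM, and 1.36% in the highest, of Reference 4 at 2 µM.

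**Figure D3:**
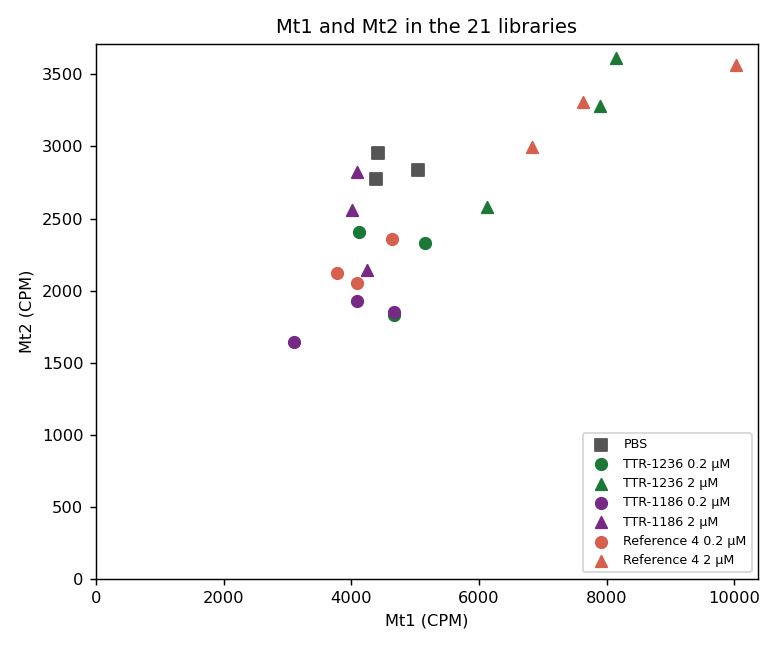
Mt2 (vertical axis, CPM) against Mt1 (horizontal axis, CPM), 1 point for each of the 21 libraries; squares are PBS, circles 0.2 µM and triangles 2 µM, coloured by agent. The PBS libraries, with 4391 to 5039 CPM of Mt1, have 2774 to 2953 CPM of Mt2, above the 1640 to 2407 CPM of the 0.2 µM libraries.

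Slc39a14 (ENSMUSG00000022094) spans 70303469 to 70351425 on the minus strand of chromosome 14 in mm10 and has 3 annotated coding transcripts of 10 exons each. Its level was lowest with TTR-1186 at 2 µM, at 14.7, 10.6 and 23.4 CPM, a mean of 16.2 ± 6.55 (SD, n = 3). In PBS it was 42.4, 27.2 and 28.8 CPM, a mean of 32.8 ± 8.36 (SD, n = 3), so no PBS library was as low as any of those 3. With TTR-1236 at 2 µM it was 27.8, 35.2 and 44.0 CPM, and with Reference 4 at 2 µM it was 46.2, 37.3 and 32.2 CPM. Both of these groups overlapped PBS. At 0.2 µM it was 31.1, 32.2 and 27.8 CPM with TTR-1236, 27.6, 23.8 and 23.1 CPM with TTR-1186, and 27.4, 22.7 and 13.9 CPM with Reference 4. All 3 groups at 0.2 µM overlapped PBS. In the order of the means, from Reference 4 at 2 µM through TTR-1236 at 2 µM, PBS, TTR-1236, TTR-1186 and Reference 4 at 0.2 µM to TTR-1186 at 2 µM, the one step without overlap was that from TTR-1236 to TTR-1186 at 0.2 µM.

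The low level of Slc39a14 rests on fewer reads than the metallothioneins. Its lowest library, of TTR-1186 at 2 µM, held 236 reads of the gene (10.6 CPM, exact 95% Poisson interval 9.28 to 12.0). Its highest, of Reference 4 at 2 µM, held 869 reads (46.2 CPM, 43.2 to 49.4). The lowest Mt1 library held 57252 reads (3100 CPM, 3074 to 3125) and the lowest Mt2 library 30291 reads (1640 CPM, 1622 to 1659). Such intervals describe counting error alone (PCR copies were not marked by molecular identifiers), and replicate libraries of Slc39a14 in PBS and in each group at 2 µM differed by more. Against PBS the log2 difference of Slc39a14 was -1.01 with TTR-1186 at 2 µM (SE 0.28, 95% interval -1.58 to -0.44), a ratio of means of 0.496. It was 0.12 with TTR-1236 and 0.24 with Reference 4 at 2 µM, and -0.08, -0.36 and -0.62 with TTR-1236, TTR-1186 and Reference 4 at 0.2 µM. Of these only the interval of Reference 4 at 0.2 µM, -1.19 to -0.05, did not include 0. Pearson's r between Slc39a14 and the log2 mitochondrial rRNA share was -0.21, and 0.52 after subtracting group means. With PBS library 3 and TTR-1186 library 2 at 2 µM left out, the difference of TTR-1186 at 2 µM from PBS was -0.84. Levels of several cell type markers are given for the TTR-1186 libraries at 2 µM, and each overlapped some other groups. The summed stellate cell and fibroblast markers were 31.0 to 49.6 CPM there, against 9.91 to 25.1 CPM in PBS. With the other agents at 2 µM they were at most 27.3 CPM. They overlapped TTR-1186 (26.3 to 37.0 CPM) and Reference 4 (21.6 to 32.4 CPM) at 0.2 µM. Stab2, the endothelial marker, was 0.179 to 3.51 CPM with TTR-1186 at 2 µM and 8.09 to 10.1 CPM in PBS. It overlapped TTR-1236 (2.74 to 7.68 CPM) and TTR-1186 (2.65 to 8.06 CPM) at 0.2 µM, and Reference 4 (3.08 to 7.56 CPM) at 2 µM. The summed hepatocyte markers were 12319 to 15390 CPM with TTR-1186 at 2 µM, overlapping the 13976 to 18147 CPM of PBS. With Reference 4 at 2 µM they were 17710 to 20328 CPM. The part of these cells in the low Slc39a14 level was not tested.

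Counting the members whose 3 libraries did not overlap the 3 PBS libraries gave few in each comparison. At 0.2 µM, 1 of the 3 members, Mt2, lay wholly under PBS with each agent, where 5.41% of all genes did so with TTR-1236, 9.6% with TTR-1186 and 10.5% with Reference 4. At 2 µM, Mt1 lay wholly above PBS with TTR-1236, as 7.08% of all genes did. Mt1 and Mt2 did so with Reference 4, as 8.91% did. With TTR-1186 at 2 µM, Mt1 and Slc39a14 lay wholly under PBS, as 5.85% of genes did. The members were chosen with these contrasts known, so the counts are read no further.

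At 2 µM the agents differed in the levels of the members, and TTR-1186 was the one that stood below the others. Between TTR-1186 and Reference 4 the log2 difference was -0.97 for Mt1 (95% interval -1.28 to -0.66), -0.40 for Mt2 (-0.68 to -0.12) and -1.25 for Slc39a14 (-1.82 to -0.68). All 3 members lay wholly lower with TTR-1186, as 8.53% of all genes did. Between TTR-1236 and TTR-1186 it was 0.83 for Mt1 (SE 0.15), 0.33 for Mt2 (95% interval 0.05 to 0.61) and 1.13 for Slc39a14 (0.56 to 1.70). Here Mt1 and Slc39a14 lay wholly higher with TTR-1236, as 6.89% of genes did, and Mt2 overlapped. Between TTR-1236 and Reference 4 it was -0.13 for Mt1 (-0.45 to 0.18), -0.07 for Mt2 (-0.35 to 0.21) and -0.12 for Slc39a14 (-0.69 to 0.45), and all 3 members overlapped. These intervals still allow differences of up to those bounds.

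At 0.2 µM the differences of Mt1 and Slc39a14 between TTR-1186 and the other agents were smaller than at 2 µM, while between TTR-1236 and Reference 4 that of Slc39a14 was larger. Between TTR-1236 and Reference 4 the log2 difference was 0.16 for Mt1 (95% interval -0.16 to 0.47), 0.00 for Mt2 (-0.28 to 0.28) and 0.54 for Slc39a14 (-0.03 to 1.11). Slc39a14 lay wholly higher with TTR-1236, as 15.1% of all genes did. Between TTR-1186 and Reference 4 it was -0.09 for Mt1, -0.27 for Mt2 and 0.26 for Slc39a14, and Mt2 lay wholly lower with TTR-1186, as 4.73% of genes did. Between TTR-1236 and TTR-1186 it was 0.25 for Mt1, 0.27 for Mt2 and 0.28 for Slc39a14, and Slc39a14 lay wholly higher with TTR-1236, as 13% of genes did. All 9 intervals at this dose include 0.

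**Figure D4:**
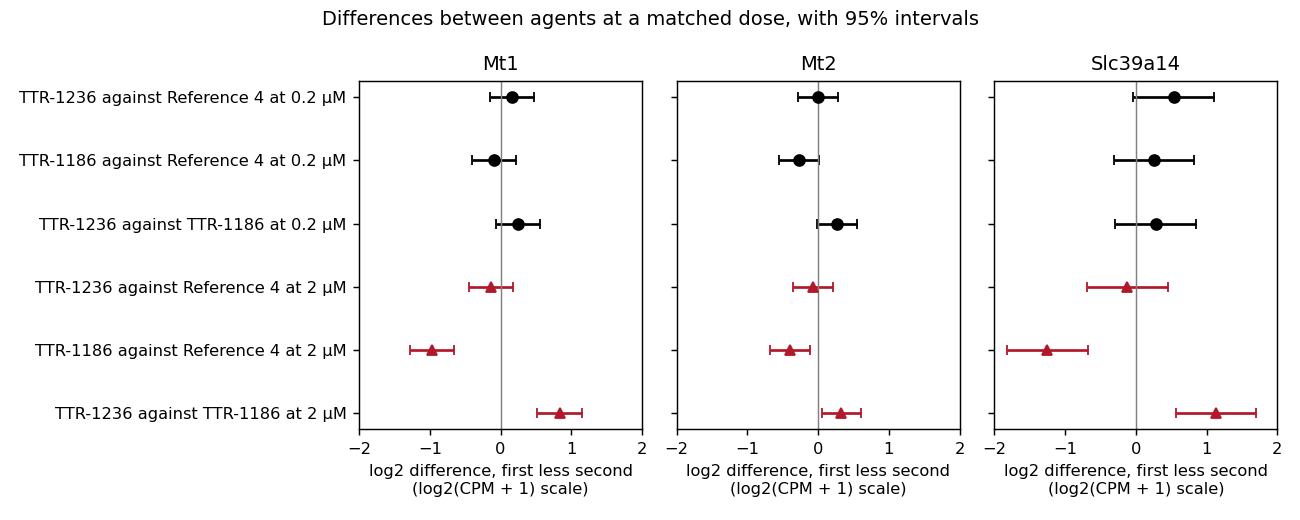
Log2 difference between agents at a matched dose (horizontal axis, first agent less second), with 95% intervals, for the 6 pairs of agent and dose; black circles are 0.2 µM and red triangles 2 µM. At 2 µM the values of Slc39a14 are -1.25 for TTR-1186 against Reference 4 and 1.13 for TTR-1236 against TTR-1186, and at 0.2 µM all 9 intervals include 0.

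Between the doses, Mt2 was higher at 2 µM than at 0.2 µM by a similar amount with each agent, while Mt1 and Slc39a14 were not. The log2 difference of Mt2 was 0.52 with TTR-1236, 0.47 with TTR-1186 and 0.59 with Reference 4 (SE 0.14 each), without overlap between doses in any agent. That of Mt1 was 0.66 with TTR-1236, 0.08 with TTR-1186 and 0.96 with Reference 4 (SE 0.15 each). That of Slc39a14 was 0.20, -0.65 and 0.86 (SE 0.28 each). Members that lay wholly higher at 2 µM were Mt1 and Mt2 with TTR-1236, as 6.42% of all genes did, Mt2 with TTR-1186, as 14% did, and all 3 with Reference 4, as 17.1% did.

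The difference between agents in the dose difference itself was taken from the same fit. Between TTR-1186 and Reference 4 it was -0.88 for Mt1 (95% interval -1.32 to -0.44), -0.13 for Mt2 (-0.52 to 0.27) and -1.51 for Slc39a14 (-2.31 to -0.70). Between TTR-1236 and TTR-1186 it was 0.59 for Mt1 (0.14 to 1.03), 0.06 for Mt2 and 0.85 for Slc39a14 (0.04 to 1.66), against a median of -0.11 over all genes, which was -0.02 after rescaling with TMM factors. Between TTR-1236 and Reference 4 it was -0.29, -0.07 and -0.66, each with an interval that includes 0. Over all 9657 genes 0% passed the limma threshold in each of these 3 contrasts. These values describe genes chosen with them known.

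The other genes of zinc transport and sensing were taken from a list of 30 genes of metallothioneins, zinc importers (Slc39 genes), zinc exporters (Slc30 genes), Mtf1 and Tmem163. Of these 17 were measured, 14 of them besides the members. This list, too, was chosen with earlier results of these data known. A gene is called where its adjusted p in limma (Benjamini-Hochberg over all 9657 genes) is under 0.05. Against PBS 0 of the 14 were called in any of the 6 comparisons. Over all genes the called shares were 0.0207% (TTR-1236), 0.0311% (TTR-1186) and 0.166% (Reference 4) at 0.2 µM, and 6.33%, 0.0518% and 2.25% at 2 µM. At an unadjusted p under 0.05, 2 of the 14 passed with TTR-1186 and 3 with Reference 4 at 0.2 µM, and 0 in the other 4 comparisons. edgeR called 0 in all 6, and DESeq2 called 1, Slc30a4 with Reference 4 at 0.2 µM. Between agents 0 of the 14 were called at either dose. The called shares of all genes were 0% in the 3 comparisons at 0.2 µM and, at 2 µM, 0% for TTR-1236 against Reference 4, 0.373% for TTR-1186 against Reference 4 and 0.342% for TTR-1236 against TTR-1186. At an unadjusted p under 0.05 between 0 and 3 of the 14 passed in these 6 comparisons, and edgeR and DESeq2 each called 0.

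With Reference 4, limma called the importer Slc39a1 and the exporter Slc30a1 higher at 2 µM than at 0.2 µM. Slc39a1 carries zinc into the cell across its surface, and had a mean of 139 CPM at the lower dose and 215 CPM at the higher, a log2 difference of 0.63 (SE 0.17, limma adjusted p = 0.0197). Its libraries were 148, 149 and 119 CPM at 0.2 µM and 187, 226 and 231 CPM at 2 µM, without overlap, and the PBS mean was 228 CPM. Those at 0.2 µM lay wholly under PBS, as 10.5% of all genes did, and those at 2 µM overlapped PBS. Slc30a1 carries zinc out of the cell and is a target of Mtf1. Its means were 10.8 CPM at the lower dose and 22.3 CPM at the higher, a log2 difference of 0.99 (SE 0.28, limma adjusted p = 0.0229). Its libraries were 8.55, 13.2 and 10.7 CPM at 0.2 µM and 18.7, 20.7 and 27.6 CPM at 2 µM, and the PBS mean was 16.4 CPM. These were 2 of the 14 genes, and 12.8% of all genes were called in this comparison, so the count is read no further. edgeR called the same 2 genes, and DESeq2 called them and Slc30a4. The median log2 difference of the 14 was 0.15, and that of all genes was 0.03. The call of Slc39a1 was lost without Reference 4 library 3 at 0.2 µM (adjusted p = 0.0723) and without library 2 or 3 at 2 µM (0.0696 and 0.105). The call of Slc30a1 was lost without Reference 4 library 1 at 0.2 µM (0.0886) and without library 2 or 3 at 2 µM (0.0531 and 0.136).

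Over the 3 agents together, Slc39a1 rose and Slc39a6 fell at 2 µM. Slc39a1 had means of 152 CPM at the lower dose and 207 CPM at the higher (log2 difference 0.44, SE 0.10, limma adjusted p = 0.00404). Slc39a6, an importer of the same family, had means of 55.6 and 42.2 CPM (-0.38, SE 0.12, limma adjusted p = 0.0348). The PBS means were 228 CPM for Slc39a1, above both doses, and 51.7 CPM for Slc39a6, between them. The count was 1 of 14 upward, where 8.8% of all genes were called higher, and 1 of 14 downward, where 10.1% were called lower. In either direction 18.9% of all genes were called. Of the 14, edgeR called Slc39a1 and Slc39a6, and DESeq2 also called Slc30a1 higher. Leaving out single treated libraries ended the call of Slc39a6 for 9 of the 18 libraries, with adjusted p = 0.0553 to 0.0907 in those fits. With TTR-1236 alone and with TTR-1186 alone, 0 of the 14 were called, where 0.135% and 0% of all genes were. At an unadjusted p under 0.05, 0 and 2 of the 14 passed there, and edgeR and DESeq2 each called 0.

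The remaining zinc genes did not pass the limma threshold between doses, though DESeq2 called Slc30a4 with Reference 4. Mtf1, the zinc-sensing factor, had 34.6 CPM at 0.2 µM and 43.4 CPM at 2 µM over the 3 agents (limma adjusted p = 0.105). The importer Slc39a4 had group means between 116 CPM (Reference 4 at 2 µM) and 162 CPM (TTR-1186 at 2 µM). Slc39a7, which releases zinc from the endoplasmic reticulum, had 127.7 CPM at 0.2 µM and 88.6 CPM at 2 µM of Reference 4, without overlap (limma adjusted p = 0.0792). Slc39a5 had 19.9 CPM at 0.2 µM and 15.8 CPM at 2 µM over the 3 agents (limma adjusted p = 0.124). Among the exporters Slc30a4 had 8.64 CPM at 0.2 µM and 16.2 CPM at 2 µM of Reference 4 (limma adjusted p = 0.0700) against 23.3 CPM in PBS. Slc39a3, Slc39a9, Slc39a11, Slc39a13, Slc30a7 and Slc30a9 had adjusted p-values of 0.466 or more in limma over the 3 agents.

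**Figure D5:**
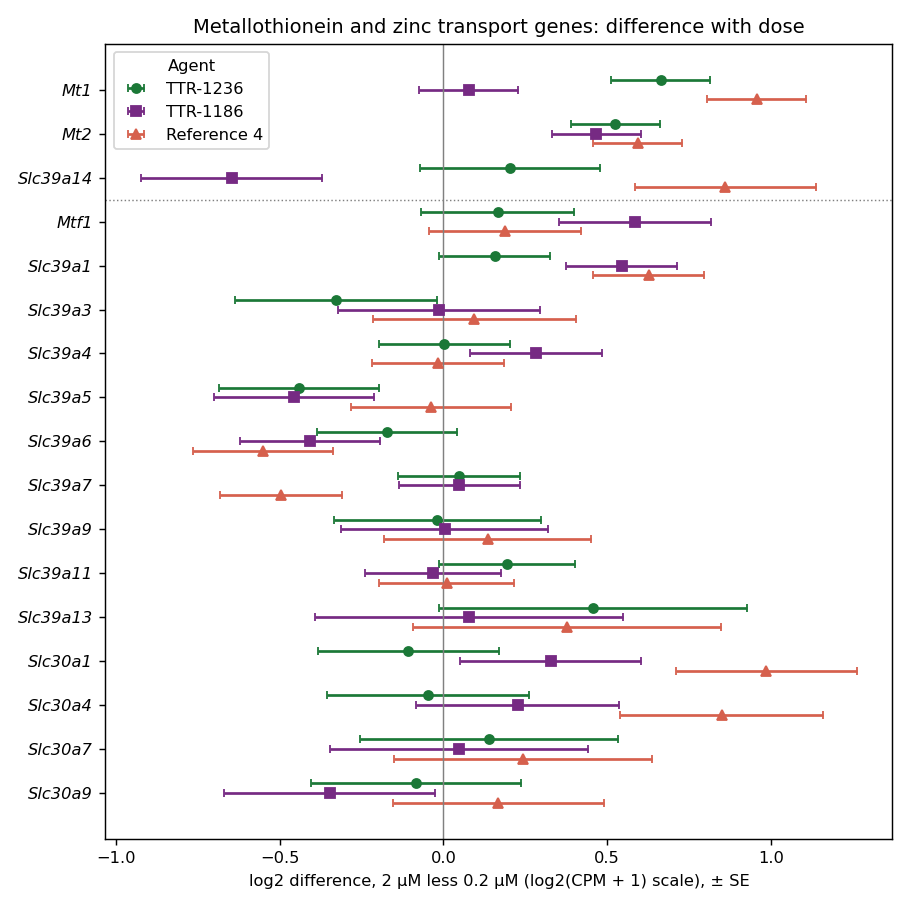
Log2 difference between 2 µM and 0.2 µM (horizontal axis, ± SE) for Mt1, Mt2 and Slc39a14, above the dotted line, and the 14 other measured zinc genes, with 1 symbol for each agent. Mt2 has 0.52, 0.47 and 0.59 with TTR-1236, TTR-1186 and Reference 4, while Slc39a14 has 0.20, -0.65 and 0.86.

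Genes with the most similar pattern to each member were ranked by Pearson's r of log2(CPM + 1) over the 21 libraries, among 7430 genes of at least 10 CPM on average and leaving out predicted genes and pseudogenes. For Mt1 these were Slc2a1, a glucose transporter (r = 0.89), Serpina3n, a secreted protease inhibitor (0.89), Saa3, a serum amyloid protein (0.88), Got2, a mitochondrial aminotransferase (0.87), and Serpina1d (0.85). For Mt2 they were Fga, a fibrinogen chain (0.92), Fabp1, a fatty acid binding protein (0.89), Hmga1b and Hmga1 (0.89 each), and AI413582 (0.87). Hmga1 and Hmga1b are near-identical copies whose reads may be split between them. For Slc39a14 they were Zfp787 (0.82), Brix1 (0.78), Pglyrp2 (0.77), Fdx1l (0.77) and Sertad1 (0.77). The 21 points share groups, libraries and dose, and the genes were picked for these values.

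Lists of genes that respond to signals known to raise metallothioneins, and a list of iron and manganese transport genes, were compared between doses. The lists were chosen with earlier results of these data known, so their counts are descriptions and are read no further. The comparison was 2 µM against 0.2 µM over the 3 agents. In it Mt1 was higher by 0.57 (SE 0.09), Mt2 by 0.53 (SE 0.08) and Slc39a14 by 0.14 (SE 0.16). Over all genes 8.8% were called higher and 10.1% lower in this comparison, and the median log2 difference was -0.01. Of 21 measured genes of the interleukin-6 and acute phase list 10 rose and 0 fell, with a list median of 0.24. Serpina3n went from 203 to 361 CPM (limma adjusted p = 0.000714), with 258 CPM in PBS. Hamp, the iron hormone hepcidin, went from 9.94 to 20.6 CPM (0.00877), with 11.5 CPM in PBS. Fga went from 129 to 201 CPM (0.000333), which was still under the 237 CPM of PBS. Fgb (1007 CPM at 2 µM, 1322 in PBS), Fgg (221 and 253) and Cebpd (13.8 and 15.5) were likewise higher than at 0.2 µM and lower than the PBS mean. The others that rose were Saa1, Saa2, Saa3 and Apcs. Against PBS, limma called Saa3 and Lcn2 higher and Hp lower with TTR-1236 at 2 µM, where 6.33% of all genes were called. For Reference 4 at 2 µM it called Saa3, Lcn2 and Hamp higher and Hp lower, where 2.25% were called. For TTR-1186 at 2 µM it called 0 of the list, where 0.0518% were called. With Reference 4 alone 7 genes of the list rose between doses, and with TTR-1236 or TTR-1186 alone 0 were called in limma, with 7 and 5 at an unadjusted p under 0.05. There edgeR called 0 with either agent, and DESeq2 called 2 with TTR-1236 (Saa3 and Serpina3n) and 0 with TTR-1186. Of 10 measured genes of the glucocorticoid list Fkbp5 and Dusp1 rose and the receptor Nr3c1 fell, from 18.1 to 8.89 CPM (limma adjusted p = 0.00587), with a list median of -0.05. Dusp1 and Fkbp5 had 71.0 and 35.7 CPM in PBS, 46.2 and 24.0 CPM at 0.2 µM, and 72.5 and 34.6 CPM at 2 µM. Of 12 measured genes of the oxidative and metal stress list Prdx1 rose, and Nfe2l2, Gclm, Txnrd1 and Gsr fell, with a list median of -0.06. Gclm, a subunit of the enzyme that starts glutathione synthesis, went from 125.8 to 92.8 CPM (limma adjusted p = 0.00697), with 119 CPM in PBS. Of 13 measured iron and manganese transport genes Fth1, Ftl1 and Aco1 rose and 0 fell, with a list median of 0.14. Fth1, the ferritin heavy chain, went from 2334 to 3087 CPM (limma adjusted p = 0.00241), with 2843 CPM in PBS. Leaving out single treated libraries ended the call of Aco1 for 12 of the 18 libraries (limma adjusted p up to 0.0951), of Saa2 for 9 (0.0928), Prdx1 for 9 (0.0882), Nfe2l2 for 7 (0.0671) and Fgg for 2 (0.0628). The call of Saa2 also ended after rescaling with TMM factors (0.0514) and in edgeR (0.0754). With PBS library 3 and TTR-1186 library 2 at 2 µM left out, the calls of Saa2 (0.0679), Prdx1 (0.0620) and Aco1 (0.0564) ended.

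Among the cell type markers, Alb and Hnf4a, 2 of the 7 measured hepatocyte markers, rose in the same comparison, where 8.8% of all genes were called higher. Alb went from 4482 to 5849 CPM (limma adjusted p = 0.00235), with 5182 CPM in PBS, and Hnf4a from 31.0 to 42.7 CPM (0.0222), a call that ended without TTR-1236 library 3 at 0.2 µM (0.0549) and without Reference 4 library 2 at 2 µM (0.0555). The PBS mean of Hnf4a was 42.9 CPM. The markers of other cells did not pass, with adjusted p-values in limma of 0.179 for Cd68, 0.699 for Csf1r, 0.579 for Stab2, 0.0915 for Acta2, 0.270 for Dcn, 0.203 for Sox9 and 0.380 for Krt19. Acta2 passed, with a lower level at 2 µM, when only the libraries compared were fitted (0.0467) and without Reference 4 library 3 at 2 µM (0.0449). It was also called lower between doses with Reference 4 alone. Cd68 passed, with a higher level at 2 µM, without Reference 4 library 2 at 0.2 µM (0.0267). The summed macrophage markers were 79.6 to 101.3 CPM in PBS. At 2 µM they were 102 to 157 CPM with TTR-1236 and 128 to 157 CPM with Reference 4, the 2 groups with the highest Mt1. With TTR-1186 at 2 µM they were 77.2 to 120 CPM. At 0.2 µM, where Mt1 overlapped PBS, they were 102 to 133 CPM with TTR-1236 and 85.1 to 184 CPM with Reference 4. With TTR-1186 at 0.2 µM they were 86.7 to 88.4 CPM. Most of this sum was Cd68, with a mean of 81.6 CPM in PBS. At 2 µM Cd68 had means of 125 CPM with TTR-1236 and 135 CPM with Reference 4. Csf1r had 9.56 CPM in PBS, and 10.4 and 9.18 CPM in those groups. The summed cholangiocyte markers were 29.1 to 42.3 CPM in PBS and 31.6 to 42.3 CPM with TTR-1186 at 2 µM. In the 2 groups with the highest Mt1 they were 42.8 to 47.2 CPM (TTR-1236) and 44.5 to 48.2 CPM (Reference 4). At 0.2 µM they reached 37.6 CPM with TTR-1236, and 43.2 CPM with TTR-1186 and with Reference 4. Krt19 had means of 15.05 CPM in PBS, 27.6 CPM with TTR-1236 and 24.6 CPM with Reference 4 at 2 µM. Sox9 had means of 19.5, 17.6 and 21.5 CPM in the same groups. With TTR-1186 at 0.2 µM, the group with the lowest mean of Mt1, Krt19 had 27.3 CPM. The part of these cells in the levels of the members was not tested.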

How the data were processed

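QuantSeq 3′ end sequencing gave 21 libraries, with 1 table for each, grouped by agent and dose as labelled. The submitters' processing notes name cutadapt 1.15, HISAT2 2.1.0, featureCounts and build mm10. How these were set, the strand option included, and how low genes were filtered is not given in the sources used here. Each deposited table holds CPM made by the authors, with a sum of 1000000 over 9657 genes shared by all tables. All values (100%) were whole numbers of reads within 0.001 reads, which gave back 14158740 to 37410773 reads per library. No further filter was applied, and the lowest gene mean was 1.22 CPM. Identifiers were matched to symbols for 9651 genes.

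Differences, intervals and p-values came from limma 3.58.1 in R 4.3.3 on log2(CPM + 1), a scale that understates the change of low genes, fitted to 7 group means with no covariate and a variance prior that was trended and robust. P-values were adjusted with the Benjamini-Hochberg method across all genes per comparison, and calls are those under 0.05. The fit was tested on simulated data. Alternatives were pseudocounts of 0.5 and 5, CPM rescaled with TMM factors, a mean of at least 10 CPM, the replicate block, the compared libraries alone, each library left out, and edgeR 4.0.16 and DESeq2 1.42.0 on the recovered reads. No filter is the analysis as run. Leaving out the lowest mitochondrial rRNA library of PBS and of TTR-1186 at 2 µM was added after seeing the data.

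The members and gene lists were chosen with earlier results of these data known. Named were the 3 members, every measured gene of the zinc list, the genes of other lists past the threshold between doses over the 3 agents (otherwise the 2 of smallest p), the 5 genes most similar to each member, and genes overlapping a member. Exons came from the GENCODE annotation and promoter windows from RefSeq, both on GRCm38. Mt1 and Mt2 windows were matched, 2 of 3 members.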

Additional observations from a re-analysis of the deposited data

How the results depend on the processing

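The log2 differences of Mt1, Mt2 and Slc39a14 in the 16 comparisons between groups were set against the alternatives. With TMM factors, edgeR and DESeq2 they moved by less than the spread between replicates. The pseudocounts also moved those of Slc39a14 by less, but can hardly move those of Mt1 and Mt2, whose levels are far higher. Leaving out 1 of the 3 libraries of a group moves its mean by only part of that group's own spread. Those fits also stayed within the spread, but could hardly have shown otherwise, so nothing is concluded from that. The replicate block cannot change the log2 differences, because every group holds the same replicate numbers. Fitting the compared libraries alone or only genes of at least 10 CPM cannot either, because each gene's group means stay the same. These settings can change p-values, and the replicate block kept all 16 counts of called zinc genes within 1.5 times. Same-numbered libraries shared only a number: their deviations from group means had a median correlation of 0.0180 over 63 pairs (-0.392 to 0.289), and 7 of 21 libraries correlated best with their own number. Leaving out PBS library 3 and TTR-1186 library 2 at 2 µM, which had the lowest mitochondrial rRNA of their groups, changed the count of called zinc genes from 0 to 1 (Slc39a1) for TTR-1186 and from 0 to 2 (Slc39a1 and Slc30a4) for Reference 4, both at 0.2 µM against PBS. DESeq2 gave 1 (Slc30a4) for Reference 4 at 0.2 µM against PBS. With single libraries left out, that count ranged from 0 to 1, with 1 without PBS library 3. The count for Reference 4 between doses ranged from 0 (without library 2 or 3 at 2 µM) to 2, and that for the 3 agents between doses from 1 to 3, where Slc39a1 was called each time. Without single libraries the log2 difference of Slc39a14 between TTR-1236 and TTR-1186 at 2 µM ranged from 0.88 to 1.42. The cause of these shifts was not tested, and 3 libraries a group limit the precision of each.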
